A study of Mus musculus with 6 samples.

Results

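The genes described here encode 8 integrin subunits (Itgae, Itgb7, Itga4, Itgb1, Itgal, Itgb2, Itgav and Itgb3) and a pair of endothelial-type adhesion ligands (Icam1 and Vcam1). They were taken by name, through their Ensembl gene IDs, and all 10 were present among the 15452 genes of the table. The libraries are mRNA sequencing of mouse Th17 cells, the CD4+ helper cells that make interleukin 17. There were 3 PDH knockout libraries, from mice titled PHD-fl/fl_CD4cre, that is with floxed alleles and a CD4 Cre transgene, and 3 WT libraries as controls, titled PHD-fl/fl, with the same floxed alleles and no Cre. The titles thus write PHD where the genotype label writes PDH, and the name of the label is used here. PDH is pyruvate dehydrogenase, the mitochondrial complex that converts pyruvate to acetyl-CoA. CD4 Cre acts in T cells from their development in the thymus, so the deletion predates the culture, and an effect of Cre itself cannot be told apart from that of the deletion. In both groups, naive CD4+ cells bead-sorted from spleen and lymph node were kept for 3 days on plate-bound anti-CD3 (5 µg/mL) with anti-CD28 (1 µg/mL), anti-IFNγ (5 µg/mL), IL-6 (30 ng/mL) and TGFβ (2 ng/mL). The comparison asks how the adhesion genes of Th17 cells differ when PDH is deleted.

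Integrins are cell-surface heterodimers of an α and a β chain, and a chain must pair before it reaches the surface. T cells use αLβ2 (LFA-1) to bind ICAM-1, α4β1 (VLA-4) to bind VCAM-1, α4β7 to bind MAdCAM-1 on gut vessels and αEβ7 (CD103) to bind E-cadherin on epithelium. The αv integrins bind ligands with an arginine-glycine-aspartate motif and can release TGFβ from its latent complex. Integrins are switched on from inside the cell, by talin and kindlin proteins that bind the β chain tail downstream of the small GTPase Rap1.

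Total counts per library lay between 33802154 and 40407124, which puts the limit that a count of 0 allows (3 counts) at 0.0742 to 0.0888 CPM. The CD4+ T cell marker genes summed to 1858 to 2044 CPM in PDH knockout libraries and 2181 to 2251 CPM in WT libraries, and the Th17 markers to 607 to 773 CPM and 925 to 1235 CPM. In bulk RNA, fewer cells of a type and less RNA per cell cannot be told apart. Summed B cell markers were uneven within groups, at 4.29, 47.5 and 76.7 CPM in PDH knockout replicates 1 to 3 and 5.19, 25.6 and 4.97 CPM in WT replicates 1 to 3. PDH knockout replicate 2 also stood apart in that 1 unnamed entry took 4.95% of its counts. Pdha1, which encodes the E1 alpha subunit of PDH, was at 198, 193 and 186 CPM in PDH knockout libraries and 256, 236 and 251 CPM in WT libraries, a partial decrease (log2 fold change -0.36 ± 0.06, adjusted p = 0.000871, and 0.0622 against a fold of 1.2). A count over a whole gene does not show the loss of an exon, and which PDH gene was floxed is not in the labels.

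Levels are CPM, counts scaled to a common library total by TMM factors, for each library in the order of its replicate number. Changes are the log2 fold change of PDH knockout over WT ± SE from edgeR's quasi-likelihood test, with p-values adjusted by Benjamini-Hochberg over all 15361 tested genes and called under 0.05. No label ties a replicate to an animal of its own, and the p-values therefore hold for the spread among these libraries, which may be technical.

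Of the 10 genes, 4 were higher in PDH knockout libraries (Vcam1, Itgae, Icam1 and Itgal), 4 were lower (Itgb7, Itgb2, Itgb3 and Itgav) and 2 were not called (Itgb1 and Itga4). Across all tested genes 47.6% were called, 23.1% higher and 24.5% lower, so that 48.53% of calls were higher, or 59.95% with upper-quartile scaling. The median log2 fold change of the 10 was -0.09, against 0.01 for all tested genes. In 9 of the 10 the libraries of the groups did not overlap, which was so in 58.2% of all tested genes. Both ligands rose. Of the 4 α chains, Itgae and Itgal rose, Itgav fell and Itga4 was not called, while 3 of 4 β chains fell and none rose.

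**Figure D1:**
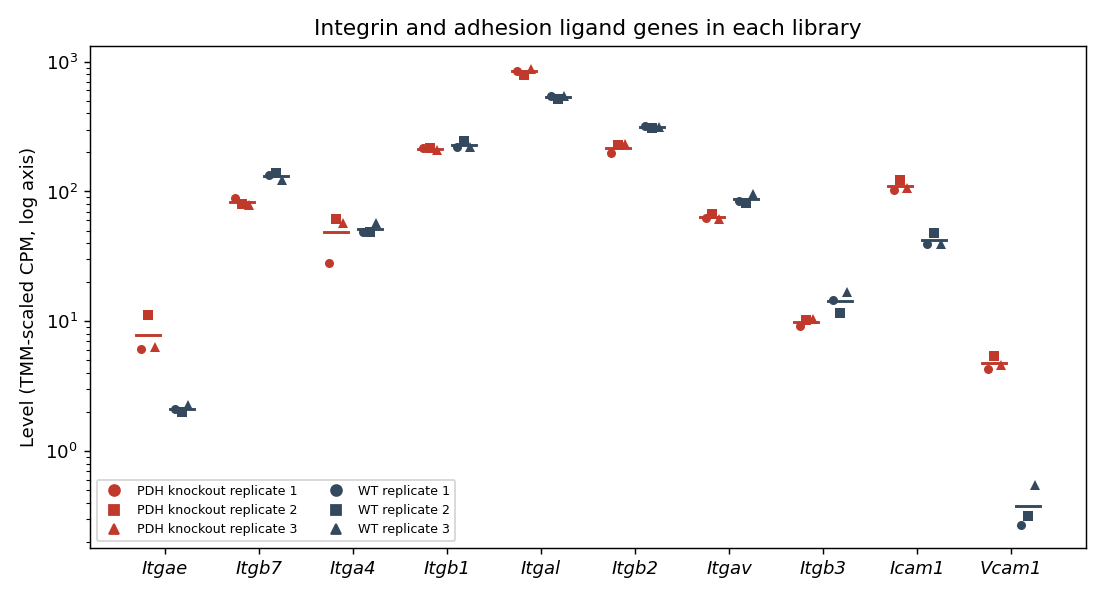
TMM-scaled CPM (log axis) of the 10 genes in each library, with PDH knockout in red on the left and WT in dark blue on the right of each gene; the horizontal bars are group means. Itga4 is the only gene whose groups overlap, with PDH knockout replicate 1 at 27.9 CPM below all the others.

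Itgae (ENSMUSG00000005947.12), which encodes the αE chain, rose. It stood at 6.06, 11.1 and 6.38 CPM in PDH knockout libraries and at 2.11, 2.02 and 2.25 CPM in WT libraries. Each PDH knockout library was above each WT library, and replicate 2 was the highest of the 3. The log2 fold change was 1.88 ± 0.24 (adjusted p = 0.000272), a 3.68-fold increase, and 3.01% of tested genes had a change of larger size. Without PDH knockout replicate 2 it was 1.54 (adjusted p = 0.000339). CD103 is also carried by CD8+ T cells, some dendritic cells and regulatory T cells, whose markers moved unevenly. Of the 2 CD8 genes, Cd8a had 42, 309 and 104 counts in PDH knockout libraries and 46, 141 and 47 counts in WT libraries, with its highest value in the library where Itgae was highest. Cd8b1 was called lower (-0.62, adjusted p = 0.00951), with 178, 223 and 165 counts in PDH knockout libraries and 280, 306 and 334 counts in WT libraries. The 5 regulatory T cell markers summed to 1947 to 2501 CPM in PDH knockout libraries and 2705 to 2906 CPM in WT libraries. Among them Ikzf2 was called higher (0.73, adjusted p = 0.00187), Ctla4 and Tnfrsf18 were called lower (-1.42 and -1.07), and Foxp3 and Il2ra were not called (-0.48 and -0.15). Of the 4 dendritic cell markers with a row, Zbtb46 was called higher (0.82, adjusted p = 0.0105), Xcr1 and Flt3 were not called (0.55 and 2.12), and the other is Itgax, described with the other subunits. The part of these cells in the Itgae value was not tested. Itgae overlaps Haspin, which lies on the opposite strand. Haspin averaged 27.7 CPM in PDH knockout libraries and 33.3 CPM in WT libraries (-0.26, adjusted p = 0.0517), the other direction from Itgae.

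Itgb7 (ENSMUSG00000001281.11), the β7 chain that pairs with αE or α4, fell. Its values were 89.0, 80.6 and 78.1 CPM in PDH knockout libraries and 135, 138 and 123 CPM in WT libraries, with a clear gap between the groups. The log2 fold change was -0.68 ± 0.07 (adjusted p = 8.71e-05). The partners of the αEβ7 heterodimer thus moved in opposite directions. B cells make Itgb7 too. With PDH knockout replicates 2 and 3 and WT replicate 2 left out, the libraries with raised B cell markers, Itgb7 was at -0.53 (adjusted p = 0.00306), a value that rests on PDH knockout replicate 1 alone in its group.

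Itga4 (ENSMUSG00000027009.19), the α4 chain shared by VLA-4 and α4β7, was not called. It was at 27.9, 61.8 and 56.7 CPM in PDH knockout libraries and 48.7, 48.3 and 57.4 CPM in WT libraries. PDH knockout replicate 1 was far below the other PDH knockout libraries, and PDH knockout replicates 2 and 3 lay near or above the highest WT value. The log2 fold change was -0.08 ± 0.33 (adjusted p = 0.866), with a 95% interval from -0.94 to 0.78, so the groups could differ by a wide margin in either direction. Without PDH knockout replicate 1 the estimate turned to 0.20 (adjusted p = 0.108). Without the 3 libraries with raised B cell markers it was -0.93 and called (adjusted p = 0.00104), again with PDH knockout replicate 1 alone in its group. B cell markers in PDH knockout replicate 1 were at 4.29 CPM, the lowest of the 6 libraries. WT replicates 1 and 3 were close to it at 5.19 and 4.97 CPM, with Itga4 at 48.7 and 57.4 CPM. The part of B cells in the Itga4 value was not tested. Cerkl, which overlaps Itga4 on the opposite strand, averaged 3.50 CPM in PDH knockout libraries and 2.41 CPM in WT libraries (0.53, adjusted p = 0.0574).

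Itgb1 (ENSMUSG00000025809.16), the β1 chain that pairs with α4, αv and many other α chains, was not called either. It was at 218, 217 and 208 CPM in PDH knockout libraries and 218, 247 and 221 CPM in WT libraries. The groups nearly met, their closest values being 217.7 CPM in a PDH knockout library and 218.4 CPM in a WT library. The log2 fold change was -0.09 ± 0.06 (adjusted p = 0.247). Its 95% interval ran from -0.24 to 0.05, far narrower than that of Itga4.

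The genes of LFA-1, the main integrin of T cell contact with antigen-presenting cells and vessel walls, moved apart. Itgal (ENSMUSG00000030830.19), the αL chain, was at 854, 787 and 882 CPM in PDH knockout libraries and 541, 515 and 545 CPM in WT libraries. All PDH knockout values were above all WT values, and the log2 fold change was 0.66 ± 0.07 (adjusted p = 7.88e-05). Itgb2 (ENSMUSG00000000290.14), the β2 chain shared by all leukocyte integrins of this family, was at 198, 226 and 230 CPM in PDH knockout libraries and 321, 310 and 314 CPM in WT libraries. Here all PDH knockout values were below all WT values (-0.53 ± 0.07, adjusted p = 0.000275).

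Both genes of αvβ3, the vitronectin receptor, fell. Itgav (ENSMUSG00000027087.12), the αv chain, was at 62.2, 66.8 and 61.3 CPM in PDH knockout libraries and 84.5, 82.1 and 96.2 CPM in WT libraries (-0.47 ± 0.07, adjusted p = 0.000792). Itgb3 (ENSMUSG00000020689.5), the β3 chain, was at 9.26, 10.2 and 10.4 CPM in PDH knockout libraries and 14.6, 11.5 and 16.7 CPM in WT libraries. The groups did not overlap, but WT replicate 2 came close to the PDH knockout range (-0.52 ± 0.14, adjusted p = 0.0113). A test against a fold of 1.2, which 25.9% of tested genes passed, did not call Itgb3 (adjusted p = 0.0573).

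Both ligand genes rose. Icam1 (ENSMUSG00000037405.9) encodes the ligand of LFA-1, which activated T cells also carry and through which they adhere to each other. It was at 103, 122 and 107 CPM in PDH knockout libraries and 39.0, 48.0 and 39.1 CPM in WT libraries. The lowest PDH knockout value was over 2 times the highest WT value, and the log2 fold change was 1.40 ± 0.10 (adjusted p = 1.88e-05), a 2.63-fold increase. Increases of at least 2-fold were called in 7.73% of tested genes. Icam4, another member of the ICAM family, had 2, 0 and 1 counts in PDH knockout libraries and 12, 11 and 17 counts in WT libraries. All deposited rows reach 10 counts in 3 or more libraries. Icam4 does so only through the WT libraries, and its difference is a description.

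Vcam1 (ENSMUSG00000027962.15), the ligand of VLA-4, is known mainly from activated endothelium, stroma and some macrophages. It had 172, 188 and 163 counts in PDH knockout libraries and 10, 12 and 22 counts in WT libraries, or 4.26, 5.38 and 4.62 CPM and 0.270, 0.314 and 0.544 CPM. Vcam1 was thus a gene of low level in both groups, with a wide gap between them. The log2 fold change was 3.64 ± 0.27 (adjusted p = 1.94e-05), a 12.5-fold increase and the 45th highest value among the 15361 tested genes. Markers of the cells known for Vcam1 moved in both directions. Endothelial markers (2 of 7 with a row) summed to 4.52 to 5.89 CPM in PDH knockout libraries and 8.60 to 11.2 CPM in WT libraries, of which Egfl7 was called lower (-1.14) and Vwf was not called (0.61). Stromal and reticular markers (4 of 9) summed to 23.2 to 33.9 CPM in PDH knockout libraries and 27.6 to 39.4 CPM in WT libraries, most of it Pdpn, and none was called (log2 fold changes from -0.35 for Pdpn to 0.38 for Col1a1). Macrophage and monocyte markers (4 of 10) summed to 1.29 to 4.23 CPM in PDH knockout libraries and 5.30 to 17.5 CPM in WT libraries. Within that list Adgre1, Csf1r and Lyz2 were not called (-1.90, -1.38 and -2.01). Spic, a factor of splenic macrophages that express Vcam1, had 16, 11 and 17 counts in PDH knockout libraries and 3, 6 and 6 counts in WT libraries (1.59, called higher). Spic has a row only through the group where it is high, and its difference is a description. None of these markers with a row was at 0 in any library, and the part of these cells in the Vcam1 value was not tested.

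**Figure D2:**
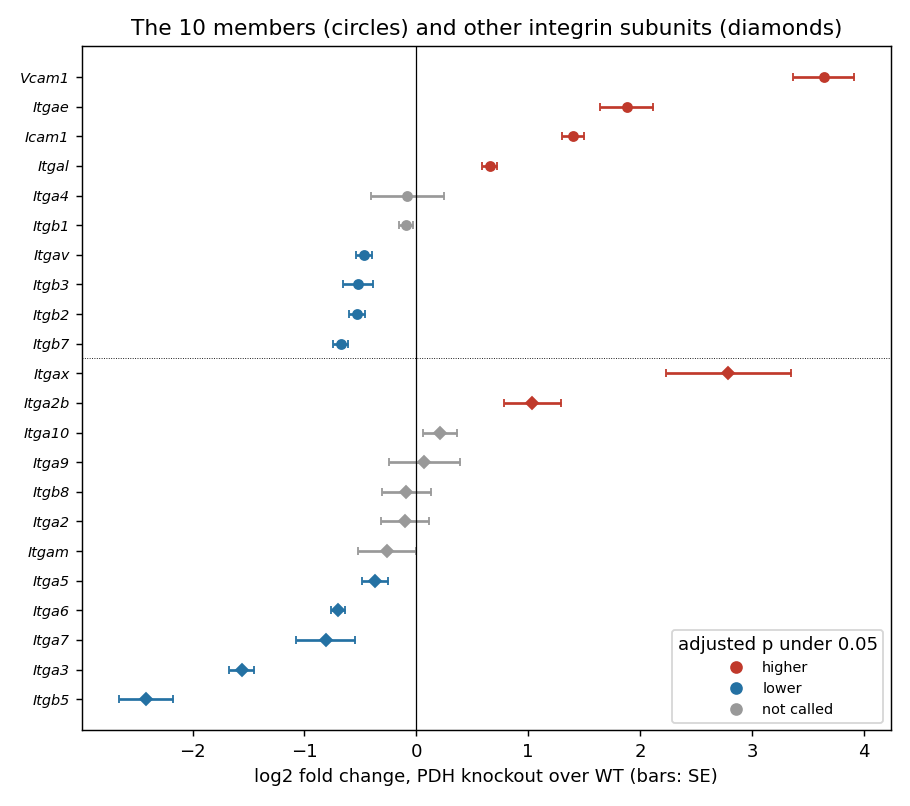
Log2 fold change of PDH knockout over WT (points, bars are SE) for the 10 genes and, below the dotted line, the 12 other integrin subunit genes with a row; red is called higher, blue called lower and grey not called. Vcam1 at 3.64 and Itgb5 at -2.42 mark the ends of the range.

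Icam1 is a classical target of NF-κB and of STAT factors, so its promoter is shown beside that of Itgb7, which had the largest decrease of the 10 genes. RefSeq promoters (GRCm38.p6) were matched for 5 of the 10 genes, and the 250 bases before each annotated start were searched on both strands for GGNNNTTCC, an NF-κB-like motif, and TTCNNNGAA, a STAT-like motif that reads the same on both strands. Capitals mark the matches, in lines that read 5′ to 3′ on the gene's strand, for Icam1 at chr9:21015690-21015939 (plus strand) and for Itgb7 at chr15:102231936-102232185 (minus strand).
Icam1: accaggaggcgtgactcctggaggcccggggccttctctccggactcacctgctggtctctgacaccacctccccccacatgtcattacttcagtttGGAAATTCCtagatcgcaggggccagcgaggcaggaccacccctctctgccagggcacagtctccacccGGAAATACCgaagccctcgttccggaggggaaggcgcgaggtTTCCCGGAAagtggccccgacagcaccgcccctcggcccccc
Itgb7: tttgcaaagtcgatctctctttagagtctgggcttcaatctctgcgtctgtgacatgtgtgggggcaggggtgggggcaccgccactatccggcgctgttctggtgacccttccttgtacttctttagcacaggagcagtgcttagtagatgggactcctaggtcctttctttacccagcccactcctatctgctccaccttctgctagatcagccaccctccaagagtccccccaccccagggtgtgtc
The Icam1 window held the NF-κB-like letters at -153 to -145, on both strands, and at -84 to -76 on the minus strand, and the STAT-like letters at -42 to -34, counted from the annotated start. The motifs did not overlap each other there. Of all 32851 promoters in the table, 15.7% held the NF-κB-like motif in this window and 7.02% the STAT-like one. The Itgb7 window held neither. Among the other 3 matched genes, Itgb1 held 1 NF-κB-like match (GGGCTTTCC at -164 to -156), and Itga4 and Itgav held neither. A match of letters is a description of the sequence and not evidence of binding.

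Levels of different genes were compared per kilobase of merged exon (GENCODE M21 lengths), as CPM per kb. In PDH knockout libraries Itgal was highest at 128 ± 7.43 CPM per kb and Itgb2 next at 71.5 ± 5.72 (SD, n = 3). In WT libraries Itgb2 led at 103 ± 1.76 CPM per kb and Itgal followed at 81.2 ± 2.51, so the order of the LFA-1 chains was turned round, with no overlap between the libraries in either group. Itgb1 followed in both groups, at 52.5 ± 1.26 CPM per kb in PDH knockout and 56.0 ± 3.83 in WT libraries, and Itgb7 came next at 29.8 ± 2.06 and 47.7 ± 2.82. Icam1 stood close below Itgb7 in PDH knockout libraries at 25.4 ± 2.31 CPM per kb, where the pair changed places when the longest transcript gave the length, and at 9.65 ± 1.18 in WT libraries, where its values overlapped those of Itgav. Below it stood Itgav at 5.91 ± 0.273 CPM per kb in PDH knockout and 8.16 ± 0.703 in WT libraries, then Itga4 at 3.49 ± 1.31 and 3.68 ± 0.366. The lowest levels were those of Itgae at 1.71 ± 0.614 CPM per kb in PDH knockout and 0.464 ± 0.0255 in WT libraries, Itgb3 at 1.69 ± 0.104 and 2.42 ± 0.444, and Vcam1 at 0.536 ± 0.0648 and 0.0424 ± 0.0166. Itgae overlapped its neighbours Itga4 and Itgb3 in PDH knockout libraries and lay below both without overlap in WT libraries.

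A ratio of 2 genes within a library does not depend on how libraries are scaled, and 8 such ratios were compared by an exact two-sided permutation test over the 20 assignments of libraries to groups. The smallest p this design allows is 0.1, or 0.16 adjusted over the 8 ratios. The log2 ratio of Itgae to Itgb7 was -3.88, -2.86 and -3.62 in PDH knockout libraries and -6.00, -6.10 and -5.78 in WT libraries. It was 2.51 higher in PDH knockout, a 5.68-fold change of the ratio (exact p = 0.1), and the groups stood far apart. Itgal to Itgb2 was at 2.11, 1.80 and 1.94 in PDH knockout libraries and 0.75, 0.73 and 0.79 in WT libraries, a difference of 1.19 (exact p = 0.1). Here the spread within each group was small beside the gap. In both of these ratios the 2 genes had each separated the groups, in opposite directions. The separation of the ratio and its p of 0.1 were therefore fixed by the single-gene values and add no support to them. Itgae to Itga4, the chains that share β7, differed by 1.98, Itgb7 to Itgb1, the chains that share α4, by -0.59, and Itgav to Itgb1 by -0.37, each without overlap (exact p = 0.1 for all 3). Itgav to Itgb3 differed by 0.04 (exact p = 0.8), with means of 2.67 ± 0.10 in PDH knockout and 2.63 ± 0.18 in WT libraries (SD, n = 3). The ratios of Itga4 to Itgb7 and to Itgb1 overlapped between groups (differences 0.52 and -0.06, exact p = 0.4 and 1). Without PDH knockout replicate 1 the second of these was 0.31.

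**Figure D3:**
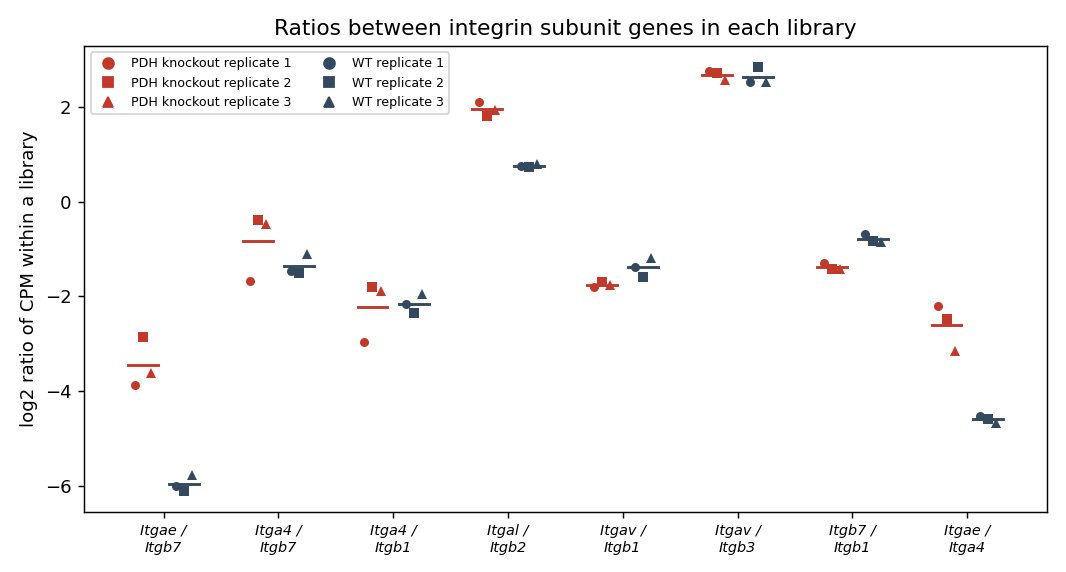
Log2 ratio of CPM between 2 integrin subunit genes within each library, PDH knockout in red on the left and WT in dark blue on the right, bars being group means. Itgae to Itgb7 and Itgal to Itgb2 are higher in every PDH knockout library, while Itgav to Itgb3 overlaps between groups, at means of 2.67 and 2.63.

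Of 18 other integrin subunit genes, 12 had a row and were tested: 2 rose, 5 fell and 5 were not called. That is 58.3% called, against 47.6% of all tested genes, and their median log2 fold change was -0.18. Itga3, an α chain of laminin receptors, was at 43.9, 54.1 and 52.9 CPM in PDH knockout libraries and 145, 168 and 132 CPM in WT libraries (-1.56 ± 0.11, adjusted p = 2.41e-05). Itga6, another laminin receptor chain, fell as well (-0.70 ± 0.06), to 45.5 ± 2.72 CPM in PDH knockout libraries against 74.1 ± 1.15 CPM in WT libraries. Both pair with β1, whose own gene was not called. Itgb5, a further partner of αv, was at 0.421, 0.286 and 0.368 CPM in PDH knockout libraries and 2.03, 1.96 and 1.83 CPM in WT libraries (-2.42 ± 0.24, adjusted p = 7.02e-05). Itgb8, the αv partner known for activating latent TGFβ, was not called, at 2.58 ± 0.0758 CPM in PDH knockout and 2.75 ± 0.798 CPM in WT libraries (-0.09, adjusted p = 0.752). Itga5, the fibronectin receptor chain, fell by 0.37 on the log2 scale (adjusted p = 0.0239). That call ended with PDH knockout replicate 1, WT replicate 1 or WT replicate 3 omitted (adjusted p = 0.0693, 0.0667 and 0.0749), with upper-quartile scaling (adjusted p = 0.0739) and against a fold of 1.2 (adjusted p = 0.183). The decrease of Itga7 by 0.81 (adjusted p = 0.0291) did not hold with any 1 library other than WT replicate 3 omitted (adjusted p between 0.0509 and 0.0944), nor by DESeq2 (adjusted p = 0.0654). Without PDH knockout replicate 1 or WT replicate 1, 3 rather than 5 of these genes were called lower.

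The increases among them were at low levels. Itgax, the αX chain that pairs with β2 and marks dendritic cells, had 14, 20 and 27 counts in PDH knockout libraries and 1, 6 and 2 counts in WT libraries. Itgax, counted among the 2, has a row only through the group where it is high, and its difference is a description. The dendritic cell markers (4 of 7 with a row, Itgax among them) summed to 3.88 to 10.1 CPM in PDH knockout libraries and 2.02 to 4.21 CPM in WT libraries, and their part in the Itgax value was not tested. Itga2b, the platelet partner of β3, was at 2.23, 2.43 and 2.66 CPM in PDH knockout libraries and 1.22, 0.786 and 1.56 CPM in WT libraries (1.04 ± 0.26, adjusted p = 0.00840). It was the sole one of 6 platelet and megakaryocyte markers with a row. Without the 3 libraries with raised B cell markers it was at 0.68 and not called (adjusted p = 0.121). Itga2, Itga9, Itga10 and Itgam were not called, with log2 fold changes from -0.26 to 0.21.

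Of 19 further integrin ligands and matrix or latency proteins, 14 were tested, 1 of which rose and 5 fell, Icam4 included. That is 42.9% called, close to the 47.6% of all tested genes. Thbs1, thrombospondin 1, had 66, 67 and 60 counts in PDH knockout libraries and 8, 12 and 3 counts in WT libraries (3.11 ± 0.38). Thbs1, counted as the 1 that rose, has a row only through the group where it is high, and its difference is a description. Like Vcam1, Thbs1 was low in both groups. Tgfb1, whose latent product the αv integrins bind, fell by 0.35 on the log2 scale (adjusted p = 0.00352, and 0.125 against a fold of 1.2), and Lrrc32, which anchors latent TGFβ at the cell surface, by 0.74 (adjusted p = 0.00144). Cd47, an integrin-associated protein, fell by 0.35 (adjusted p = 0.00901), a call lost without the 3 libraries with raised B cell markers (adjusted p = 0.168). Tgfb3, which has a row only through the WT libraries, fell by 1.30, a call lost without WT replicate 1 (adjusted p = 0.0644). Without WT replicate 2, 3 rather than 1 of these genes were called higher.

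Of the genes that activate integrins or tie them to actin, 40 of 42 were tested: 6 rose, 17 fell and 17 were not called (57.5% called, against 47.6% of all tested genes). Their median log2 fold change was -0.13. Of the 6, Fermt2 and Tgfb1i1 have a row only through the PDH knockout libraries. Zyx, zyxin, a protein of focal adhesions, was at 67.3, 68.0 and 79.2 CPM in PDH knockout libraries and 133, 127 and 120 CPM in WT libraries (-0.83 ± 0.08, adjusted p = 4.58e-05). Vasp, its actin-elongating partner, fell by 0.54, Sipa1, which turns Rap1 off, by 0.64, and Skap1, an adaptor that carries Rap1 signals to LFA-1, by 0.54. Tln2, talin 2, rose to 10.4, 8.56 and 9.41 CPM in PDH knockout libraries, against 2.57, 2.83 and 1.83 CPM in WT libraries (1.98 ± 0.18, adjusted p = 4.40e-05). Ptk2, focal adhesion kinase, rose by 0.89 (adjusted p = 0.00022). Tln1, the talin of leukocytes, and Fermt3, their kindlin, are named after their values were seen. Tln1 was not called, at 412 ± 24.9 CPM in PDH knockout and 433 ± 12.7 CPM in WT libraries (adjusted p = 0.396), and Fermt3 fell to 235 ± 6.07 CPM, against 314 ± 20.8 CPM in WT libraries (-0.41 ± 0.06, adjusted p = 0.000761). With upper-quartile scaling, 10 rather than 6 genes of this list were called higher.

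Of 19 adhesion receptors other than integrins, 4 rose, 10 fell and 5 were not called. That is 73.7% called, against 47.6% of all tested genes, and the median of their log2 fold changes was -0.27. Cd2, the receptor for Cd48 in mouse T cell contacts, was at 155, 145 and 140 CPM in PDH knockout libraries and 467, 504 and 432 CPM in WT libraries (-1.67 ± 0.07, adjusted p = 1.80e-06). Selplg, which encodes the selectin ligand PSGL-1, fell by 0.67, Spn, the sialomucin CD43, by 0.70 and Emb, embigin, by 0.78. Alcam, a ligand of CD6, and Cd24a rose by 1.10 and 0.74. Of 10 tested genes that build selectin ligand glycans, 2 rose, 3 fell and 5 were not called, a share close to the 47.6% called among all tested genes. Fut4, a fucosyltransferase, fell to 1.24, 1.43 and 1.39 CPM in PDH knockout libraries, against 5.62, 6.13 and 7.68 CPM in WT libraries (-2.26 ± 0.18), and the sialyltransferase gene St3gal4 fell by 0.80. Gcnt1, the core 2 branching enzyme, rose by 0.89.

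**Figure D4:**
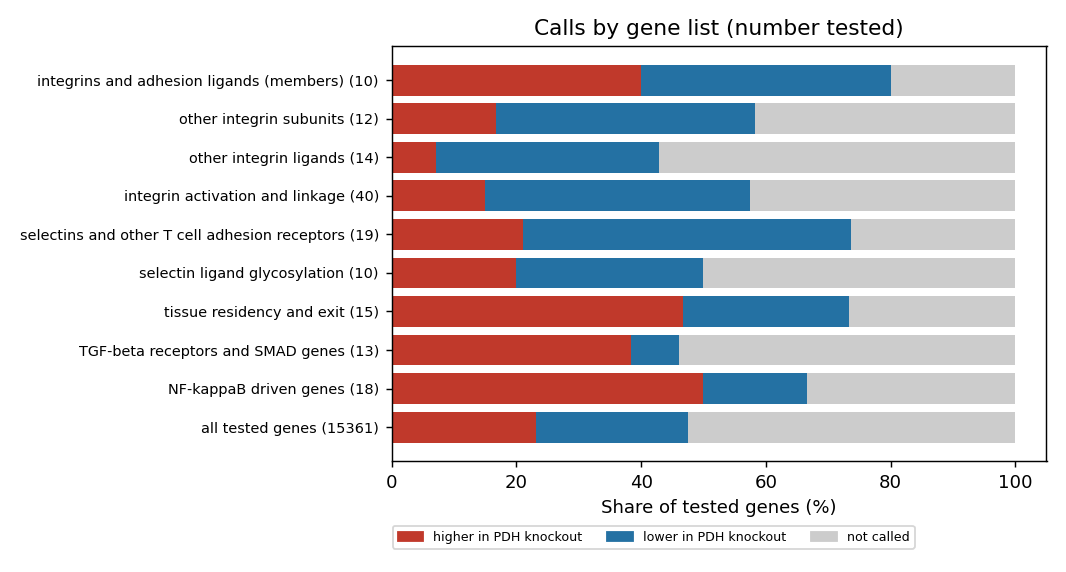
Share of tested genes called higher (red), called lower (blue) or not called (grey) in PDH knockout libraries for the 10 genes, each listed group and all 15361 tested genes, with the number tested in brackets. Of all tested genes 23.1% were higher and 24.5% lower.

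Genes tied to residence in or exit from tissue, the setting in which CD103 is best known, moved both ways. Of 15 tested, 7 rose and 4 fell (73.3% called, against 47.6% of all tested genes), around a median of 0.30 on the log2 scale. Cd69, which holds T cells in tissue by removing the exit receptor S1PR1 from the surface, was at 54.6, 71.2 and 61.2 CPM in PDH knockout libraries and 31.7, 44.6 and 29.0 CPM in WT libraries (0.83 ± 0.18, adjusted p = 0.0102). S1pr1, the gene of that exit receptor and also among the 7, rose by 0.30 (adjusted p = 0.0284). Runx3, a factor known to drive Itgae in CD8+ T cells, fell by 0.61 (adjusted p = 0.000125), and its part in the Itgae value was not tested. Klf3, Ahr and Rgs1 rose by 0.92, 0.77 and 0.48. Prdm1, counted among the 7, had 12 to 22 counts in PDH knockout libraries and 3 to 4 counts in WT libraries, and like Itgax is present only through the group where it is high. Zfp683, counted among the 4, had 14, 8 and 12 counts in PDH knockout libraries and 23, 32 and 19 counts in WT libraries. Like Tgfb3, Zfp683 has a row only through the WT libraries, and its difference is a description.

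TGFβ, present in all cultures, is the best known inducer of Itgae. Of 13 TGFβ receptor and SMAD genes 5 rose and 1 fell, or 46.2% called, close to the 47.6% of all tested genes. Among them were Ski (0.87 ± 0.07), a repressor of SMAD signals, Tgfbr1 (0.47 ± 0.07) and the feedback inhibitor gene Smad7 (0.44 ± 0.08). Smad3 was lower at -0.33 ± 0.06 (adjusted p = 0.00150, and 0.139 against a fold of 1.2). The part of TGFβ signalling in the Itgae value was not tested. Of 18 genes of the NF-κB system and its targets, the pathway known to drive Icam1 and Vcam1, 9 rose, 3 fell and 6 were not called. That is 66.7% called, against 47.6% of all tested genes, around a median of 0.20 on the log2 scale. Nfkbia, the inhibitor IκBα and itself a target, was at 330, 395 and 367 CPM in PDH knockout libraries and 156, 198 and 153 CPM in WT libraries (1.11 ± 0.11, adjusted p = 0.000116). Tnfaip3, which encodes the inhibitor A20, rose by 0.97, Nfkb2 by 0.70, Irf1 by 0.65, Birc3 by 0.52 and Ccl5 by 2.26. The 3 called lower were Nfkb1 (-0.43), Rel (-0.34) and Bcl3 (-0.30). The part of NF-κB in the Icam1 and Vcam1 values was not tested. With upper-quartile scaling, 1 rather than 3 genes of the NF-κB list was called lower.

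**Figure D5:**
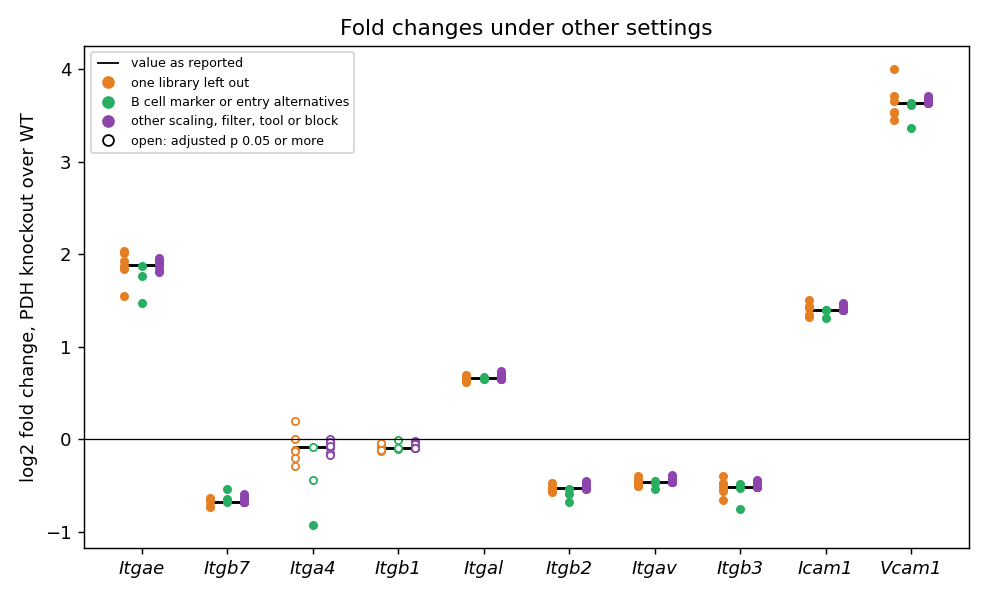
Log2 fold change of PDH knockout over WT for the 10 genes as reported (black bars) and under 19 other settings (points, open where the adjusted p was 0.05 or more). The 8 called genes kept their sign at every setting, and the Itga4 points run from -0.93 to 0.20.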

How the data were processed

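RNA-seq libraries of Th17 cultures (3 PDH knockout, 3 WT) were compared. The deposited values are expected counts, estimated per gene and written as whole numbers, and were used as they stand. Salmon, DESeq and DESeq2 appear in the submitters' processing notes, with neither version nor role. The genome build is not given in the sources used here. Each of the 15452 deposited rows has at least 10 counts in at least 3 libraries. Symbols were matched on unversioned IDs to GENCODE M21: 15138 matched and 314 did not. Whether counting used strand is not stated, so overlapping genes are reported as uncertain. The limits for a count of 0 cover counting error only, while the 95% intervals of fold changes come from the fit and include the spread between libraries.

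Counts were filtered with filterByExpr (91 genes removed, 15361 tested), scaled by TMM and fitted with edgeR 4.0.16 (robust quasi-likelihood, genotype only) in R 4.3.3, with Benjamini-Hochberg adjustment; limma 3.58.1 and DESeq2 1.42.0 gave alternatives. Marker sums use library totals. Figures used matplotlib 3.10.9 under Python 3.11.15. Between libraries of a group, counts differed beyond sampling noise (chi-square over its degrees of freedom 25.17 or more). The pairs with PDH knockout replicate 2 had the highest values, 156.29 and 145.79, against at most 30.59 for the other pairs. The genes and lists were chosen with earlier results of these data known, and no set test was run. Named genes are the 10 members, all other integrin subunits with a row, up to 6 called genes with the smallest p of each list, and Pdha1. Beside these, Haspin and Cerkl are given because they overlap members, and cell type markers where they bear on a member. Tln1, Fermt3 and S1pr1, and the NF-κB genes called lower, are given by choice after their values were seen. Fermt2, Tgfb1i1 and Zfp683 are named because each has a row only through the group where it is high.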

Additional observations from a re-analysis of the deposited data

How the results depend on the processing

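Under 19 alternatives the 8 called members kept their direction, and all kept their call except Itgb3 against a fold of 1.2 (adjusted p = 0.0573). Itga4 turned positive without PDH knockout replicate 1 (0.20) or WT replicate 3 (0.0056); leaving out single libraries moved it between -0.2895 and 0.2002. Of all tested genes 3548 were called higher and 3763 lower, so that 48.53% of calls were higher. That share was 59.95% with upper-quartile factors, which moved the median of all genes by under 0.1. Against a fold of 1.2, 2125 and 1856 were called. The same rule left lower calls at 3 of the other integrin subunits, 3 ligands, 9 activation genes, 1 residency gene, 0 TGFβ genes and 1 NF-κB gene, and higher calls at 1 glycosylation gene and 3 TGFβ genes. With at least 50 counts in 3 libraries, 1 other integrin subunit was higher and 3 ligands were lower. With upper-quartile factors, 10 activation genes were higher and 1 NF-κB gene lower. Without the 3 libraries with raised B cell markers, 1 other integrin subunit and 4 glycosylation genes were higher and 2 TGFβ genes lower. Leaving out single libraries gave 1 to 3 ligands higher and 1 to 2 TGFβ genes lower. It left 3 to 4 other subunits called lower, against 5 in the reported fit. The cause was not tested. Among genes not called, Itga2 turned to 0.15 without those 3 libraries, 0.0229 without PDH knockout replicate 3 and 0.0366 without WT replicate 2. With single libraries left out its range was -0.1798 to 0.0366. Itgb8 turned to 0.1705 without WT replicate 3 (range with single libraries left out -0.2357 to 0.1705). Itga9 turned to -0.2286 with the B cell covariate, -0.0284 without those 3 libraries, -0.14 without PDH knockout replicate 3 and -0.18 without WT replicate 1. With single libraries left out the Itga9 range was -0.1792 to 0.3671. The log2 ratio differences turned to 0.31 and 0.04 for Itga4 to Itgb1 (without PDH knockout replicate 1 and WT replicate 3, range -0.2675 to 0.3108), and to -0.0077 and -0.0102 for Itgav to Itgb3 (without WT replicates 1 and 3, range -0.0102 to 0.1449).

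Correlations of same-numbered deviations were -0.098, 0.093 and -0.259, and those of differently numbered libraries ran from -0.182 to 0.271. With 3 libraries in each group these values cannot show whether replicate numbers pair the libraries. Adding the replicate number to the fit as a block gave 3473 genes higher and 3745 lower, with 4 members higher and 4 lower, and the Itga7 call was lost (adjusted p = 0.0515).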
